A study of Mus musculus with 768 samples.

Results

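Mouse embryonic stem cells programmed towards motor neurons were compared after 36 h and after 12 h of factor induction, cell by cell. At both time points the cells came from embryoid bodies of the line Ainv15(iNgn2.Isl1.Lhx3.V5), aggregated 2 days before doxycycline at 3 µg/ml switched on a cassette of Ngn2 (the gene Neurog2), Isl1 and Lhx3. Both groups therefore carried the same cassette and received the same drug, and they differed in its duration. The line is an engineered stem cell line and no separate culture is named, so each time point is 1 sample and all spread given here is between cells of that sample. No test of significance was possible, and differences are described by their size.

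A cell was kept when at least 2000 genes were above 0, which left 44 of 96 cells at 36 h and 52 of 96 at 12 h, out of 368 of 768 in all 8 time points. The cells nearest below this limit had 1936 genes at 36 h and 1989 at 12 h. The values are TPM, which give each transcript as a share of all transcripts of its cell after correction for transcript length. A gene entered the comparison with a mean of at least 10 TPM and detection above 0 in at least 25% of kept cells at the time point where it was higher. That held for 4895 of the 27723 rows of the table, of which 4277 carry a gene name. At the edge of the filter, Notch1 entered with 10.1 TPM at 36 h and Ostf1 with 10.0 TPM at 12 h, while MYCL1 at 9.999 TPM and SMIF at 9.986 TPM, both at 12 h, did not.

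Ngn2 is a proneural basic helix-loop-helix factor, and Isl1 and Lhx3 are LIM-homeodomain factors that together specify spinal motor neurons. Cells that leave pluripotency for a neuronal fate are known to shut off stem cell genes, pass through a stage with Notch ligands and proneural factors, and then switch on cytoskeletal and vesicle proteins of neurons. In that stage Notch ligands on one cell activate receptors on its neighbours, where Hes repressors hold back neuronal genes.

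Depth differed between the time points and touches each value below. The kept cells had 2056 to 3675 genes at 36 h, with a median of 2894, and 2181 to 5205 at 12 h, with a median of 4268.5. At 36 h 0 cells exceeded 4000 genes, against 33 of the 52 at 12 h. All kept cells at 36 h had cell numbers of 26 or higher, against 38 of 52 at 12 h. Each comparison was therefore repeated against the 19 cells at 12 h with at most 4000 genes (median 3350), and named genes and lists also against the 11 with at most 3500 (median 2888). The make-up of the libraries moved as well. Sod1, the cytosolic superoxide dismutase, took a mean of 1.96% of TPM at 36 h and 5.37% at 12 h, and the mitochondrial Mt-Nd4 1.35% and 0.297%. Rows of unnamed or small RNA genes held a median of 18.0% at 36 h and 12.4% at 12 h. The part of these differences in the results below was not tested.

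**Figure D1:**
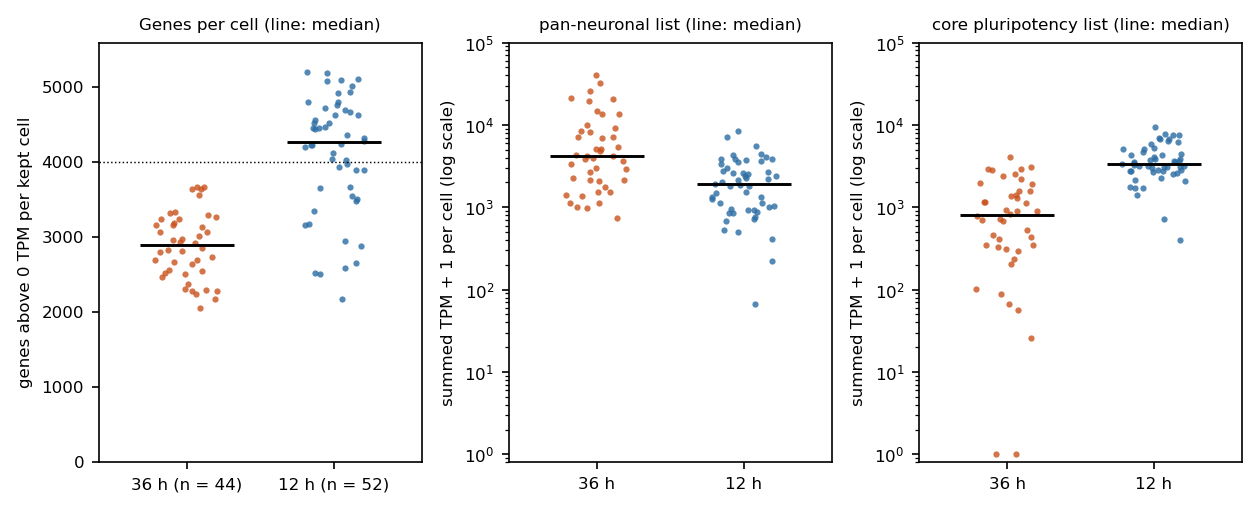
Genes above 0 TPM per kept cell (left) and the summed TPM + 1 of the pan-neuronal (middle) and core pluripotency lists (right, both log scales), with 1 point per cell at 36 h (n = 44) and 12 h (n = 52) and a line at the median. The dotted line marks 4000 genes, which 0 cells at 36 h and 33 cells at 12 h exceeded; the median summed TPM was 4202 at 36 h and 1892 at 12 h for the pan-neuronal list, and 801 and 3392 for core pluripotency.

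Dcx, Gpm6b and Nefl, genes of the neuronal cytoskeleton and membrane, were among the highest named genes at 36 h relative to 12 h, and Med30, Srm, Utf1, Dll3 and Hes1 among the lowest. Of the 4895 genes, 950 (19.4%) were at least 2-fold higher at 36 h than at 12 h and 1215 (24.8%) at least 2-fold lower, on the scale log2 of (mean TPM + 1). The median log2 fold change of all 4895 was −0.12. Against the 12 h cells with at most 4000 genes the same genes gave 1510 higher (30.8%) and 1096 lower (22.4%), with a median of 0.22, so that 57.9% of its calls were higher, beside 43.9% with all kept cells. The average used moved the balance further and the other way, with 208 higher and 1845 lower genes for medians over cells and 216 and 1987 for means of log2(TPM + 1). The balance between higher and lower genes is therefore not settled here. Of the 2165 genes past 2-fold in either direction (44.2% of 4895), 2045, or 94.5%, had the same direction against the shallower cells. That repeat uses the same 36 h cells and a part of the same 12 h cells, so some of this agreement is built in. Of the higher genes 836 stayed past 2-fold and 0 turned to 2-fold lower, and of the lower genes 885 stayed and 40 turned to 2-fold higher.

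A narrower group was past 2-fold in the same direction in 5 settings: all kept cells, the 12 h cells with at most 4000 genes, odd-numbered cells, even-numbered cells, and means without the highest cell of the gene at each time point. It held 416 higher genes (8.50% of 4895) and 582 lower genes (11.9%), called stable here. Since the stable genes were chosen on these values, the values that follow for them are a description. Against the 11 cells at 12 h with at most 3500 genes, 920 of the 998 kept their direction, with 397 higher and 447 lower genes past 2-fold, where 42.5% and 20.0% of all 4895 genes were. These 11 cells are among those with at most 4000 genes that chose the stable genes, so they give no independent check.

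**Figure D2:**
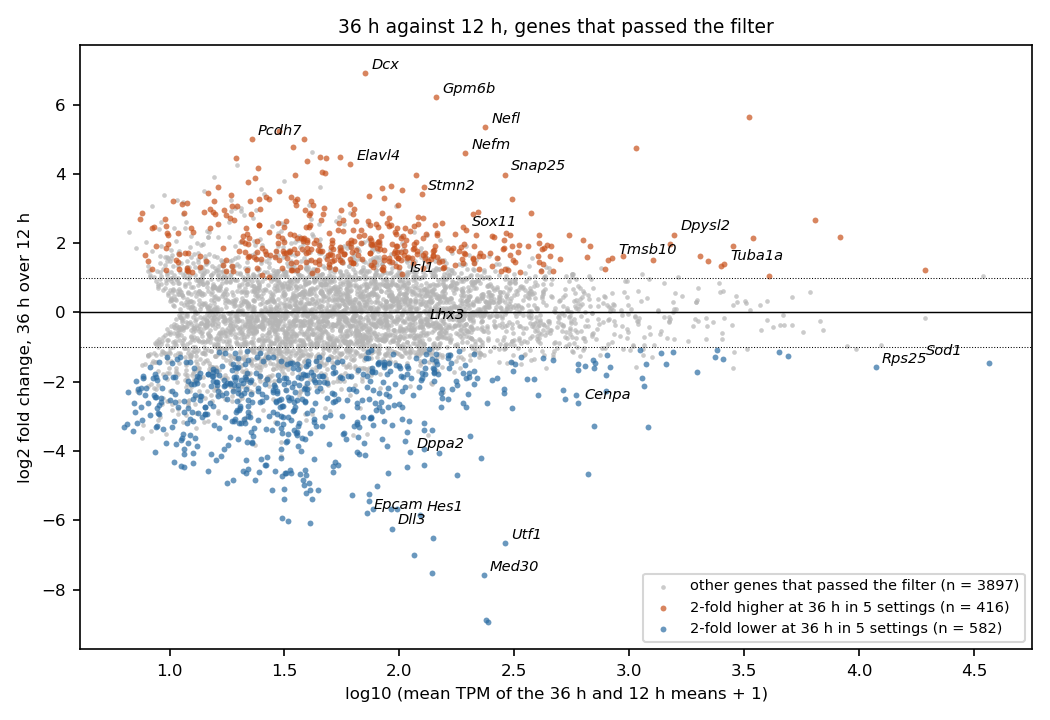
Log2 fold change at 36 h over 12 h against the log10 of the mean of the 2 time points' TPM + 1, for the 4895 genes that passed the filter; orange and blue points are the 416 higher and 582 lower genes that were past 2-fold in 5 settings, and dotted lines mark 2-fold. Dcx, Gpm6b, Nefl and Nefm stand at the top, Med30 and Utf1 near the bottom, and Sod1 is the most abundant of the lower genes that carry a label.

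Dcx, which encodes doublecortin, a microtubule-binding protein of migrating young neurons, had the highest log2 fold change of the named stable genes. Over cells its lowest, median and highest TPM were 0, 0 and 1603 at 36 h and 0, 0 and 5.58 at 12 h. It was above 0 in 16 of 44 cells at 36 h (36.4%, exact 95% interval 22.4 to 52.2) and in 5 of 52 at 12 h (9.62%, 3.20 to 21.0), intervals that cover counting error only. The groups overlapped in their cells at 0, while the cells above 0 had a median of 234 TPM at 36 h, against 0.760 TPM at 12 h. It averaged 140 TPM at 36 h, against 0.169 TPM at 12 h, which is 6.92 on the log2 scale, or 7.09 against the shallower 12 h cells. Dcx lies on chromosome X from 143855842 to 143933396 (GRCm38).

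Gpm6b encodes a proteolipid-family membrane glycoprotein of neurons and glia and lies on the same chromosome. Its lowest, median and highest TPM were 0, 0 and 2889.96 at 36 h and 0, 0 and 70.9 at 12 h. It averaged 285 TPM at 36 h, against 2.82 TPM at 12 h, with 15 of 44 and 7 of 52 cells above 0. Cells above 200 TPM were thus found at 36 h and not at 12 h, and the log2 fold change was 6.23.

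Start-site sequences are shown for Dcx and Gpm6b, the genes with the largest gain, and for Dll3 and Utf1, the Notch ligand and the pluripotency gene with the largest loss among genes with an entry. They are from RefSeq (GRCm38.p6) and run 5′ to 3′ from 250 bases before to 50 after the start, except for Dcx, where the 30 bases around its match are given. Capitals mark matches to CAGATG or CAGCTG, boxes that basic helix-loop-helix factors can bind, or to TAATTA, a homeodomain core, on either strand. The windows are chrX:143933241-143933270 (minus strand) for Dcx, chrX:166238693-166238992 (plus strand) for Gpm6b, chr7:28301736-28302035 (minus strand) for Dll3 and chr7:139943606-139943905 (plus strand) for Utf1.
Dcx: aaaaaaagcatgTAATTAatcataggaggt
Gpm6b: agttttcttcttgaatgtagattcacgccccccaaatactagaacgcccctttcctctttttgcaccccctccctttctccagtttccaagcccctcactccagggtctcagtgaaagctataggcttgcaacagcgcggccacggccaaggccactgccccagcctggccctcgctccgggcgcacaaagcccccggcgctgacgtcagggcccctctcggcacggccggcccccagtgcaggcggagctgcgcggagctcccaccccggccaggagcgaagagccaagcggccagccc
Dll3: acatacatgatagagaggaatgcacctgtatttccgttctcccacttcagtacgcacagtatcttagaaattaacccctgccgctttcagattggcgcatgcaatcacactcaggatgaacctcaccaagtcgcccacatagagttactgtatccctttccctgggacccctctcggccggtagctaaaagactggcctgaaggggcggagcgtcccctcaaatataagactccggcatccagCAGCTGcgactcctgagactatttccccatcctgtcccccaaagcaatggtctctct
Utf1: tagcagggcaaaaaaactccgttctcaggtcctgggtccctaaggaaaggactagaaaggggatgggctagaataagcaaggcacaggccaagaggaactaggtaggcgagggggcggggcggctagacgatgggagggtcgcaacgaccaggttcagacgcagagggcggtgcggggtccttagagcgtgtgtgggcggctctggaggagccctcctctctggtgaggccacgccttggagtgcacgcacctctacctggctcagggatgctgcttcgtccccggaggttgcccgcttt

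The Dcx window holds 1 TAATTA, the Dll3 window 1 CAGCTG just before the start, and those of Gpm6b and Utf1 hold none of these letters. TAATTA occurs in 5.29% of the 32544 promoter windows in the table, CAGCTG in 16.4% and CAGATG in 17.1%. Among genes with a window, CAGCTG was present in 17.4% of 580 genes 2-fold higher at 36 h, 14.8% of 836 genes 2-fold lower and 14.9% of all 3269 that passed the filter. CAGATG was in 12.2%, 11.4% and 11.3%, and TAATTA in 2.93%, 3.47% and 3.64%. The Ebf motif was in 0.913% of all windows and in 1.03%, 0.957% and 1.13% of the same groups, and ATCAATA in 2.07% and in 0.862%, 0.957% and 1.13%. The shares of higher and lower genes lay within a few points of that of all genes that passed for each of the 5 motifs.

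Nefl and Nefm, the light and medium neurofilament chains that fill axons, came next among the neuronal genes. Nefl had 0, 0 and 7676 TPM as lowest, median and highest value at 36 h and 0, 0 and 506 TPM at 12 h, with means of 461 and 10.3 TPM and a log2 fold change of 5.36. The 12 h mean rests largely on the cell at 506 TPM, and without the highest cell of each time point the log2 fold change was 7.57. Nefm had 0, 0 and 6875 TPM at 36 h and 0, 0 and 223 TPM at 12 h, with means of 370 and 14.2 TPM and a log2 fold change of 4.61. Most cells of either time point lay at 0, so the difference sits in a minority of cells: 13 of 44 at 36 h against 3 of 52 at 12 h for Nefl, and 15 against 11 for Nefm. Both genes were above 0 together in 9 of 44 cells at 36 h and in 1 of 52 at 12 h. They are neighbours on chromosome 14, at 68083863 to 68089095 and 68119545 to 68125004 (GRCm38), with 30449 bases between them. Dcx was joined by Nefl or Nefm in 13 of its 16 cells at 36 h and in 1 of its 5 at 12 h.

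**Figure D3:**
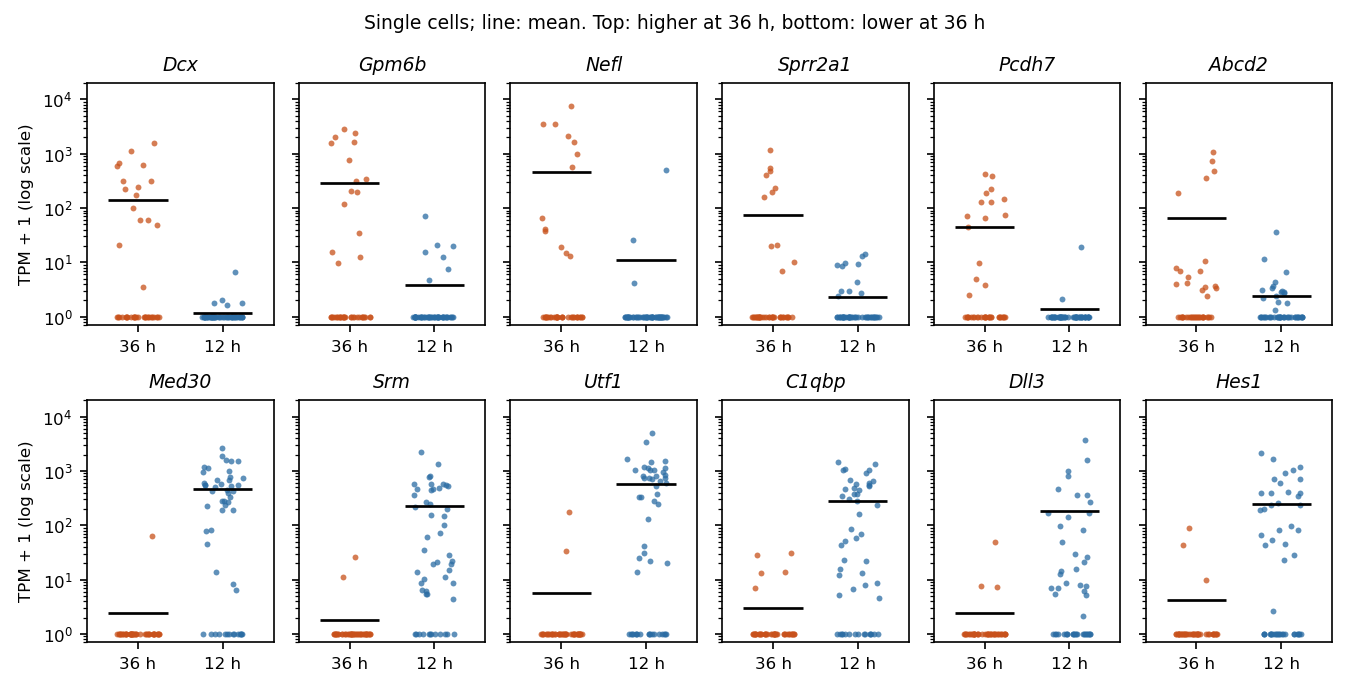
TPM + 1 of single cells (log scale) at 36 h (orange, n = 44) and 12 h (blue, n = 52) for the 6 highest named stable genes (top row) and Med30, Srm, Utf1, C1qbp, Dll3 and Hes1 from among the lowest (bottom row), with a line at the mean. In the top row most cells of both time points are at 0 TPM and most of the high cells belong to 36 h, with 1 cell at 12 h at 506 TPM for Nefl; in the bottom row between 1 and 5 cells at 36 h are above 0, against 28 to 40 at 12 h.

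The other named stable genes at the top had less in common. Pcdh7, a protocadherin, averaged 43.2 TPM at 36 h, against 0.374 TPM at 12 h (15 of 44 and 2 of 52 cells above 0), and Dclk1, a doublecortin-like kinase, 105 and 3.68 TPM. Ablim1, an actin-binding LIM protein, averaged 85.9 TPM at 36 h, against 2.86 TPM at 12 h, and Apc, a Wnt pathway scaffold that also binds microtubules, 74.6 and 2.62 TPM. Single cells weighed on these values: for Apc the highest cell at 36 h had 2224 TPM, and its log2 fold change was 4.38 over all kept cells, 3.44 without the highest cell of each time point and 2.09 in even-numbered cells. Without the highest cells Dclk1 moved to 5.42 from 4.50, and Ablim1 to 5.51 from 4.49. Abcd2, a peroxisomal transporter, Fam20b, a xylose kinase, and Rab2a, a small GTPase of the secretory path, had log2 fold changes of 4.77, 4.47 (3.67 without the highest cells) and 4.45. Sprr2a1, an epithelial cornified envelope gene with near-identical copies that makes its counts uncertain, had 5.01.

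In the pan-neuronal list the members that passed the filter leaned higher at 36 h. Of its 28 genes, chosen with earlier results of these data known, 18 passed. Of these, 10 were 2-fold higher and 0 lower, against 19.4% and 24.8% of all genes, and all 10 were stable. Dcx, Nefl, Nefm and Elavl4 passed on their detection at 36 h alone, being above 0 in under 25% of cells at 12 h. The counts are therefore a description of these cells. The median log2 fold change of the 18 was 1.68, beside −0.12 for all 4895 genes, and 1.92 beside 0.22 against the shallower 12 h cells. Snap25, a membrane-fusion protein of nerve endings, had 0, 0 and 5419 TPM as lowest, median and highest value at 36 h and 0, 0 and 578 TPM at 12 h, with means of 539 and 33.2 TPM. Stmn2, a tubulin-binding protein of growth cones, averaged 229 TPM at 36 h, against 20.6 TPM at 12 h and was above 0 in 23 of 44 and 5 of 52 cells. Elavl4, a neuronal RNA-binding protein, averaged 115 and 4.98 TPM (12 of 44 and 7 of 52 cells).

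A few pan-neuronal genes were broad at both time points. Dpysl2, a regulator of axon growth, had a median of 1659 TPM at 36 h, against 324 TPM at 12 h, with 43 of 44 and 46 of 52 cells above 0 and a log2 fold change of 2.25. Rtn1, a reticulon of the neuronal endoplasmic reticulum, had means of 694 TPM at 36 h, against 179 TPM at 12 h, and Gap43, a growth cone protein, 742 and 251 TPM. Members under 2-fold included Tubb3, the neuronal β-tubulin, with 97.2 TPM at 36 h, against 76.3 TPM at 12 h, and Uchl1, a deubiquitinase, with 150 and 214 TPM. Dpysl3 stayed outside the filter at 9 of 44 cells, with 140 TPM at 36 h, against 10.2 TPM at 12 h. Mapt was above 0 in 0 cells at 36 h and 1 cell at 12 h.

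Counted per cell among its 2000 highest genes, which gives each cell the same number of genes, the pan-neuronal list held 2 to 17 members at 36 h, with a median of 8, and 3 to 12 at 12 h, with a median of 6. In the 12 h cells with at most 4000 genes the median was 7, closer to that at 36 h. Its summed TPM was 741 to 40610.5 at 36 h and 66.6 to 8461 at 12 h. The ranges overlapped, and the cells with the highest sums were at 36 h.

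Of 12 genes for tubulins, the subunits of microtubules, 7 passed, with 4 2-fold higher and 0 lower, beside 19.4% and 24.8% of all genes. Their median was 1.10, and 2.00 against the shallower 12 h cells. Tuba1a, the main α-tubulin of young neurons, had 2628 TPM as its median at 36 h and 941 TPM at 12 h, in 44 of 44 and 50 of 52 cells. Tubb2b averaged 19.4 TPM at 36 h, against 1.32 TPM at 12 h. Of 22 actin cytoskeleton genes 16 passed, with 4 higher and 1 lower, or 9 and 3 against the shallower 12 h cells. Actg1 (1018 TPM at 36 h, 237 at 12 h) and Tmsb10, an actin-sequestering thymosin (1264 and 425), were higher, while Pfn1, profilin, was lower (189 and 981). Actb was above 0 in every kept cell, with 8542 TPM at 36 h, against 16405 TPM at 12 h. Tubulin and actin genes have close copies that reads of 50 bp may not separate.

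Genes of axon guidance, synapse and transcription gave smaller numbers, to be read beside the 19.4% of all genes higher and 24.8% lower. Of 22 axon guidance genes matched, 6 passed, with 3 higher and 0 lower, or 1 and 2 against the shallower 12 h cells. Cntn1, an adhesion protein of axons, averaged 63.8 TPM at 36 h, against 23.8 TPM at 12 h, Robo2, a Slit receptor, 118 and 51.6 TPM, and Ncam1 751 and 369 TPM. Robo2 and Ncam1 were under 2-fold against the shallower 12 h cells (log2 0.96 and 0.42). Of 27 synaptic vesicle genes 6 passed, with 3 higher and 1 lower. Cplx2, complexin 2, a brake and trigger of vesicle fusion, averaged 121 TPM at 36 h, against 26.4 TPM at 12 h, in 35 of 44 and 34 of 52 cells.

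Of the Ebf and Onecut factors, which act late in motor neuron specification, 3 of 6 passed. Onecut2 had 0, 0 and 516 TPM as lowest, median and highest value at 36 h and 0, 0 and 50.1 TPM at 12 h, with a log2 fold change of 3.34. Ebf1 averaged 292 TPM at 36 h, against 90.3 TPM at 12 h, and Ebf2 97.2 and 153 TPM. Onecut2 and Ebf1 were stable, and Ebf2 differed by less than 2-fold.

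Over all kept cells the induced factors themselves did not move as a group. Neurog2 averaged 6.71 ± 18.0 TPM at 36 h and 5.65 ± 19.2 TPM at 12 h (SD over 44 and 52 cells) and was above 0 in 7 and 9 cells. Isl1 averaged 140 ± 402 TPM at 36 h and 66.6 ± 131 TPM at 12 h, with 20 cells above 0 at each. Lhx3 averaged 112 ± 366 TPM at 36 h and 140 ± 209 TPM at 12 h, with 15 and 28 cells. Isl1 was 2.08-fold higher, a log2 fold change of 1.06 that stood at 0.65 without the highest cell of each time point (2338 TPM at 36 h) and at 0.057 in odd-numbered cells, so the 2-fold difference rests on few cells. Neurog2 failed the filter. Lhx3 changed side with depth, at a log2 fold change of −0.32 over all kept cells and 1.39 against the 12 h cells with at most 4000 genes, of which 6 of 19 were above 0, and it stood at −1.05 without the highest cells. Against the same shallower cells Isl1 stood at 1.33 (4 of 19 above 0) and Neurog2 at 1.93 (1 of 19), so each factor was past 2-fold higher there. Against the 11 cells with at most 3500 genes Neurog2, Isl1 and Lhx3 stood at 2.95, 2.24 and 1.02. The direction of the factors thus rests on which 12 h cells are used. Isl1 and Lhx3 were above 0 together in 13 of 44 cells at 36 h and 17 of 52 at 12 h. Reads of the cassette and of the native genes were not separated here.

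Motor neuron identity genes were sparse. Lmo4, a LIM-only cofactor, passed the filter and was lower and broad, with a median of 59.2 TPM at 36 h, against 831 TPM at 12 h. Mnx1, a motor neuron homeodomain factor, was above 0 in 5 of 44 cells at 36 h and 2 of 52 at 12 h. Slc18a3, the vesicular acetylcholine transporter, was above 0 in 7 and 16 cells. Hox genes, which set position along the spinal cord, had 0 of 21 genes past the filter, spinal interneuron markers 0 of 17 and ventral spinal progenitor markers 0 of 8. For such genes a value of 0 means not detected at this depth: Hprt, a housekeeping gene, was above 0 in 9 of 44 cells at 36 h and 8 of 52 at 12 h.

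Notch signalling genes went both ways. Of 18 genes 10 passed, 2 of them 2-fold higher and 5 lower, beside 19.4% and 24.8% of all genes, with 4 of the lower ones stable and a median of −1.21. Among the ligands, Dll3, which acts within its own cell to dampen Notch, had 0, 0 and 49.0 TPM as lowest, median and highest value at 36 h and 0, 4.84 and 3738 TPM at 12 h. It was above 0 in 3 of 44 cells at 36 h and 29 of 52 at 12 h, with a log2 fold change of −6.24. Dll1, the activating ligand, averaged 15.6 TPM at 36 h, against 25.8 TPM at 12 h, under 2-fold. Jag1 averaged 206 and 105 TPM.

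The receptors split. Notch2 averaged 64.3 TPM at 36 h, against 215 TPM at 12 h and Notch3 2.34 and 11.0 TPM, whereas Notch1 averaged 10.1 and 4.47 TPM. Among the targets, Hes1, the repressor that Notch activates, had 0, 0 and 89.8 TPM at 36 h and 0, 24.8 and 2131 TPM at 12 h. It was above 0 in 3 of 44 cells at 36 h (6.82%, exact 95% interval 1.43 to 18.7) and 28 of 52 at 12 h (53.8%, 39.5 to 67.8), with a log2 fold change of −5.85. Hes5 was at 0 in all cells of both time points. The list's median stood at −1.26 against the 12 h cells with at most 4000 genes and at 0.89 against the 11 with at most 3500, so its sign rests on which 12 h cells are used, although Dll3 and Hes1 kept log2 fold changes of −7.23 and −6.40 against those 11 cells.

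Proneural and progenitor genes went both ways, as did all genes, with 19.4% higher and 24.8% lower. Of 19 proneural cascade genes 13 passed, 5 of them higher and 3 lower, with a median of −0.11, close to that of all genes. Sox11, a Sox factor of newborn neurons, was broad, with 171 TPM as its median at 36 h and 30.3 TPM at 12 h and 43 of 44 and 40 of 52 cells above 0. Hes6, which opposes Hes1, averaged 18.5 TPM at 36 h, against 101 TPM at 12 h. On the log2 scale that is −2.38, but 1.50 against the 12 h cells with at most 3500 genes. Mfng, a fringe that modifies Notch, averaged 67.7 and 19.8 TPM, and its log2 fold change of 1.72 turned to −0.80 in even-numbered cells. Neurod1, a proneural factor downstream of Ngn2, averaged 116 and 41.9 TPM, or 1.44 on the log2 scale, but 0.65 against the shallower 12 h cells. Among neural progenitor genes 6 of 12 passed, with 4 higher and 2 lower. Fabp7, a lipid-binding protein of radial glia, averaged 655 TPM at 36 h, against 87.9 TPM at 12 h and was above 0 in 22 of 44 and 10 of 52 cells.

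Core pluripotency genes that passed the filter were mostly lower at 36 h. Of 16 genes, likewise chosen with earlier results known, 8 passed. They held 0 higher and 7 lower genes, beside 19.4% and 24.8% of all genes, with 6 of the lower ones stable. Utf1 and Dppa2 passed on their detection at 12 h alone, being above 0 in under 25% of cells at 36 h. Against the shallower 12 h cells 1 was 2-fold higher and 7 lower. The median was −2.34, or −1.77 against those cells. Utf1, a chromatin-bound stem cell factor, had 0, 0 and 172 TPM as lowest, median and highest value at 36 h and 0, 267 and 4938 TPM at 12 h. It was above 0 in 2 of 44 cells at 36 h and 34 of 52 at 12 h, with a log2 fold change of −6.65. Dppa2 averaged 11.7 TPM at 36 h, against 208 TPM at 12 h, in 8 of 44 and 39 of 52 cells. Lin28a, an RNA-binding blocker of let-7, averaged 16.3 and 99.8 TPM, and Trim71, an RNA-binding ubiquitin ligase, 35.8 and 192 TPM.

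The decline was uneven among the pluripotency genes. Sall4, a zinc finger factor, was still above 0 in 38 of 44 cells at 36 h, against 51 of 52 at 12 h, with medians of 274 and 840 TPM. Pou5f1 and Sox2 did not pass. They were above 0 in 6 of 44 and 4 of 44 cells at 36 h and in 14 and 10 of 52 at 12 h. Sox2 was thus under the 25% limit at both time points, while Pou5f1 was over it at 12 h. By the filter, the Pou5f1 mean was then under 10 TPM at 12 h or was higher at 36 h, where detection was under 25%. No change is read for either gene at this depth. In the summed list the cells had 0 to 4095 TPM at 36 h and 399 to 9424 TPM at 12 h, and 2 cells at 36 h held no member. The formative and primed list had 8 of 11 genes past the filter, 0 higher and 3 lower, beside 19.4% and 24.8% of all genes. Against the shallower 12 h cells 2 were higher and 3 lower. Its lower members were Zic2 (1.63 TPM at 36 h, 21.0 at 12 h), Etv5 (21.0 and 124) and Pou3f1 (56.1 and 130).

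Stem cell and neuronal genes were often found in the same cell. Among the 2000 highest genes, at least 3 pan-neuronal and at least 3 core pluripotency genes were present in 20 of 44 cells at 36 h and in 51 of 52 at 12 h, and in 18 of the 19 cells at 12 h with at most 4000 genes. At least 3 pan-neuronal genes were present in 43 of 44 and 52 of 52 cells, so these counts are set by the pluripotency genes alone. For single genes above 0, at least 1 of Dcx, Nefl, Nefm, Elavl4, Snap25 and Gpm6b was present in 33 of 44 cells at 36 h and 31 of 52 at 12 h. At least 1 of Hes1, Dll1 and Dll3 was present in 15 of 44 and 48 of 52 cells, and both kinds in 11 and 29.

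Other members of the lowest group belong to basic cell functions. Med30, a subunit of the Mediator complex, had 0, 0 and 62.9 TPM as lowest, median and highest value at 36 h and 0, 276 and 2596 TPM at 12 h, in 1 of 44 and 38 of 52 cells. Over the whole series the Med30 mean was high at 0 and 12 h alone, and low at a time point between them. The Med30 difference is therefore not read as a loss during induction, and the part of the libraries in it was not tested. Srm, spermidine synthase, was above 0 in 2 of 44 cells at 36 h and 40 of 52 at 12 h, and C1qbp, a mitochondrial matrix protein, in 5 and 37. Epcam, an epithelial adhesion molecule of stem cells, averaged 1.56 TPM at 36 h, against 141 TPM at 12 h, and Chchd10, a mitochondrial protein, 2.72 and 191 TPM. Without the highest cell of each time point several of the lower genes stood lower still, with Med30 at −8.72, Utf1 at −8.11, Chchd10 at −6.99, Hes1 at −6.55 and Dppa2 at −5.97 on the log2 scale. Fam114a2 and Mrps26, a mitochondrial ribosomal protein, were both listed at 0 in each of the 44 cells at 36 h, against 20 and 14 of 52 cells above 0 at 12 h. The count of 0 allows a share of up to 6.82% of cells with a value above 0, for counting error only, and sets no limit on the share that express either gene. BAT3, the older symbol of Bag6, was lower at −5.67 over all kept cells but higher at 1.56 against the 12 h cells with at most 3500 genes, so its direction is not settled here.

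Cell cycle genes showed no shared direction. Their counts are read beside the 19.4% of all genes higher and 24.8% lower, or 30.8% and 22.4% against the shallower 12 h cells. Of 24 S phase genes 21 passed, with 3 higher and 5 lower and a median of −0.01, or 6 and 4 with a median of 0.43 against the shallower 12 h cells. Cdt1, a replication licensing factor, averaged 3.80 TPM at 36 h, against 154 TPM at 12 h, Mcm6, a helicase subunit, 4.04 and 98.6 TPM, and Pola1 4.86 and 28.2 TPM. Mcm7, of the same helicase, averaged 620 and 248 TPM. Of 26 G2 and M phase genes 22 passed, with 4 higher and 5 lower and a median of −0.38. Against the 12 h cells with at most 4000 genes 8 were higher and 3 lower with a median of 0.20, and with at most 3500 the median was 0.86, so the sign rests on which 12 h cells are used. Cenpa, the centromeric histone, averaged 167 TPM at 36 h, against 1029 TPM at 12 h, whereas Mki67 averaged 38.6 and 4.49 TPM and Cenpf 114 and 21.0 TPM. Cenpf was above 0 in 21 of 44 cells at 36 h and 29 of 52 at 12 h. With medians over cells its log2 fold change was −0.68, so its higher mean sits in a minority of cells. Mki67 was above 0 in 14 of 44 cells at 36 h, 11 of which also held at least 1 of the 6 neuronal genes, close to the 33 of 44 over all cells there. At 12 h these were 4 of 11 cells with Mki67, and 31 of 52 over all cells. Among exit genes Cdkn1a, the p21 inhibitor, averaged 56.4 and 193 TPM.

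The p53 and Wnt lists are read beside the 19.4% of all genes higher and 24.8% lower. Of 15 p53 targets 8 passed, with 1 higher and 4 lower and a median of −1.10 (−0.60 against the 12 h cells with at most 3500 genes). Bax, a death effector, was above 0 in 1 of 44 cells at 36 h and 16 of 52 at 12 h, and Mdm2, which degrades p53, averaged 6.10 and 41.2 TPM. Of 21 Wnt genes 9 passed, with 1 higher and 4 lower, all 4 stable, and a median of −0.99 (−0.04 with at most 3500 genes). Tcf7l1, a repressor of Wnt targets in stem cells, averaged 25.6 TPM at 36 h, against 117 TPM at 12 h, Lef1 5.99 and 27.6 TPM, and Fzd7, a receptor, 2.54 and 16.0 TPM. Against the 12 h cells with at most 3500 genes Fzd7, at −2.27 on the log2 scale over all kept cells, reversed to 1.09, and Lef1 stood at −0.040. Fzd3, a receptor used in axon guidance, averaged 24.3 and 3.63 TPM.

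Ribosomal protein genes took a median of 7.76% of TPM at 36 h and 11.7% at 12 h. All 55 matched genes passed, with 1 higher and 9 lower, a smaller share each way than the 19.4% and 24.8% of all genes. Of the lower ones 7 were stable, and the list median was −0.30, beside −0.12 for all genes. The same shares of all genes stand beside the other lists here. Rps25 averaged 5956 TPM at 36 h, against 17643 TPM at 12 h, and Rpl9 919 and 3007 TPM. Of 37 oxidative phosphorylation genes 4 were higher and 6 lower, with a median of −0.24 that became 0.37 against the shallower 12 h cells. Cox5a was above 0 in 5 of 44 cells at 36 h and 38 of 52 at 12 h. Glycolysis (3 higher and 2 lower of 14) and cholesterol synthesis (5 and 3 of 16) went both ways, and the glycolysis median of −0.23 became 0.60 against the shallower 12 h cells. Tpi1 averaged 288 TPM at 36 h, against 59.2 TPM at 12 h and Hk2 12.1 and 64.9 TPM. Tpi1 was above 0 in 22 of 44 cells at 36 h and 33 of 52 at 12 h, and stood at −1.42 with medians over cells. Hmgcs1 averaged 504 and 150 TPM and Sqle, squalene epoxidase, 183 and 46.0 TPM.

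Smaller lists added single genes. Egr1, an immediate early factor, averaged 62.4 TPM at 36 h, against 5.80 TPM at 12 h, in 19 of 44 and 6 of 52 cells, while the 3 genes of its list that passed had a median of 0.42. Nnat, an imprinted neuronal membrane protein, averaged 179 and 49.1 TPM. Crabp2, a retinoic acid carrier, averaged 138 and 53.7 TPM and was the 1 gene of 15 in its list to pass. Dnaja1, a co-chaperone, averaged 571 and 151 TPM. Among chromatin regulators, Eed, a Polycomb subunit, averaged 88.6 and 31.9 TPM and Dpf1, a subunit of the neuronal BAF complex, 8.80 and 28.7 TPM. Eed was nevertheless above 0 in 11 of 44 cells at 36 h and 20 of 52 at 12 h. Markers of other lineages were few. Of 15 primitive streak and mesoderm genes 0 passed, although T, brachyury, was above 0 in 8 of 44 cells at 36 h (mean 160 TPM) and listed at 0 in all 52 at 12 h. Sparc, of the endoderm list, averaged 52.4 TPM at 36 h, against 163 TPM at 12 h. The summed epithelial list had 0 to 2572 TPM at 36 h and 0 to 2540.25 TPM at 12 h, with medians of 54.6 and 585, and the 12 h cells with at most 4000 genes had a median of 312.

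**Figure D4:**
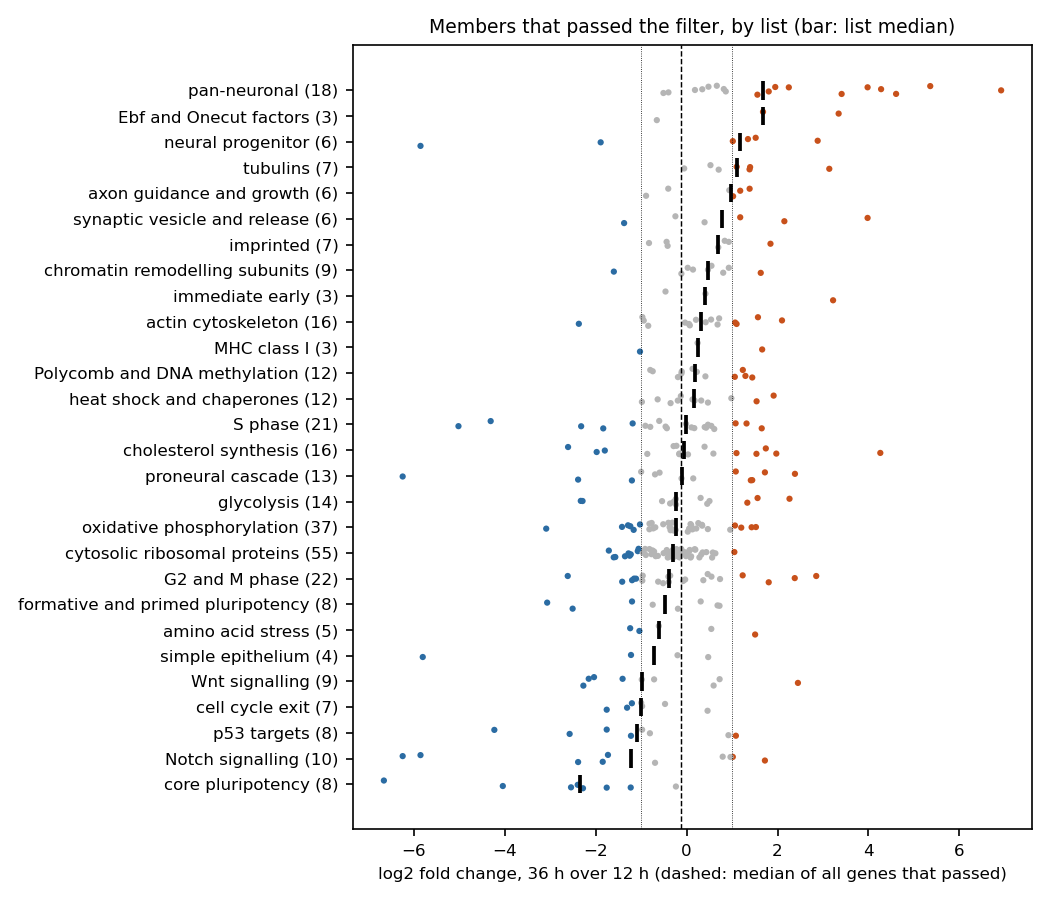
Log2 fold change at 36 h over 12 h of the members that passed the filter, 1 row per list with the number of members in brackets, ordered by the list median (bar); orange points are 2-fold higher, blue 2-fold lower, and the dashed line is the median of all 4895 genes at −0.12. The pan-neuronal list is at the top with a median of 1.68, level with the Ebf and Onecut factors at 1.68, and core pluripotency at the bottom with −2.34. Against the 12 h cells with at most 4000 genes the Ebf and Onecut factors (2.27) and tubulins (2.00) stood above the pan-neuronal list (1.92).

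Detection among each cell's 2000 highest genes gave a view at equal gene number. These 2000 are a larger part of the genes above 0 at 36 h (median 2894) than at 12 h (median 4268.5). A gene above 0 can therefore lie outside them more easily at 12 h. By this measure 252 genes gained at least 25 percentage points at 36 h over 12 h and 313 lost as many. These counts were not set beside a share of all genes and are not read further. The largest gain was that of Kcnq1ot1, an imprinted RNA antisense to Kcnq1, among the 2000 highest in 44 of 44 cells at 36 h and 14 of 52 at 12 h. It was above 0 in 52 of 52 cells at 12 h, with a median of 18.5 TPM, against 68.3 TPM at 36 h. Sox11 ranked among them in 39 of 44 and 19 of 52, and Slc7a11, the cystine transporter, in 37 and 9. At 12 h Sox11 was above 0 in 40 of 52 cells and Slc7a11 in 50. Acss3, Acnat1, Psg28, Tigit and Tcra, most of them genes of liver, placenta or immune cells, were also among the 8 largest gains, at 27 to 37 of 44 cells against 3 to 11 of 52. At 12 h these genes were above 0 in 42, 45, 37, 24 and 33 of 52 cells, in that order. Kcnq1ot1 averaged 36.2, 26.0, 86.9 and 109 TPM at 0, 12, 36 and 48 h, compared with 3.03 to 5.85 TPM at 6, 18, 24 and 30 h, the same division of time points as for Sod1. The reads carry no strand, so Kcnq1ot1 cannot be told apart from unspliced Kcnq1.

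The largest losses were the replication-dependent histone genes HIST1H2AP (6 of 44 cells at 36 h, 43 of 52 at 12 h) and HIST1H2AH (11 and 43), with Med30 (1 and 35), Igfbp2, a growth factor binder (4 and 34), Snrpf, a splicing subunit (16 and 48), Nqo1, a quinone reductase (2 and 31), Trim71 (13 and 44) and Utf1 (2 and 31). Histone genes are near-identical and their values are uncertain. These 8 losses joined stem cell, histone and housekeeping functions rather than 1 pathway.

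Transcript length and base composition moved with the fold change. Genes 2-fold higher at 36 h had a median longest transcript of 4154 bases and 46.6% GC, those 2-fold lower 3158 bases and 51.4%, and all that passed 3563 bases and 48.8%. Across 4540 genes, which are not independent, Spearman's correlation of the log2 fold change was 0.17 with length and −0.26 with GC. With genes cut into 4 equal bins by length, in the longest bin 25.1% were 2-fold higher and 17.4% lower, and in the shortest bin 13.6% and 29.3%. The median length was 3654.5 bases for the pan-neuronal members that passed and 2976 for core pluripotency, and the part of length in either list was not tested.

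The other time points place both groups. Sod1 averaged 65262, 53733, 19553 and 20085 TPM at 0, 12, 36 and 48 h, compared with 518 to 807 TPM at 6, 18, 24 and 30 h. By this gene the time points fall into sets that do not follow time, and levels are compared here within a set. The labels do not name these sets. The set at 0, 12, 36 and 48 h is not uniform, since 0 and 12 h differ from 36 and 48 h in Sod1 and in genes per cell. Within the set that holds both groups, Dcx averaged 0.584, 0.169, 140 and 140 TPM at 0, 12, 36 and 48 h and Nefl 0, 10.3, 461 and 621 TPM. Utf1 averaged 2434, 568, 4.65 and 9.07 TPM, Dppa2 449, 208, 11.7 and 93.2 TPM, and Hes1 97.8, 241, 3.20 and 0 TPM. Utf1 was thus highest before induction, and Hes1 at 12 h. The means at 0, 12, 36 and 48 h rest on 37, 52, 44 and 14 kept cells, with medians of 5304, 4268.5, 2894 and 2141 genes. Those at 48 h are therefore the least certain. In the other set, at 6, 18, 24 and 30 h, Nefl averaged 8.02, 6.20, 68.4 and 72.2 TPM and Utf1 63.7, 24.2, 18.6 and 7.29 TPM. Med30 was at 371, 461, 1.43 and 0 TPM at 0, 12, 36 and 48 h and at 0.776 to 4.90 TPM at the other 4 times. It was thus low at 6 h and high at 12 h, so across the sets its level did not follow time.

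**Figure D5:**
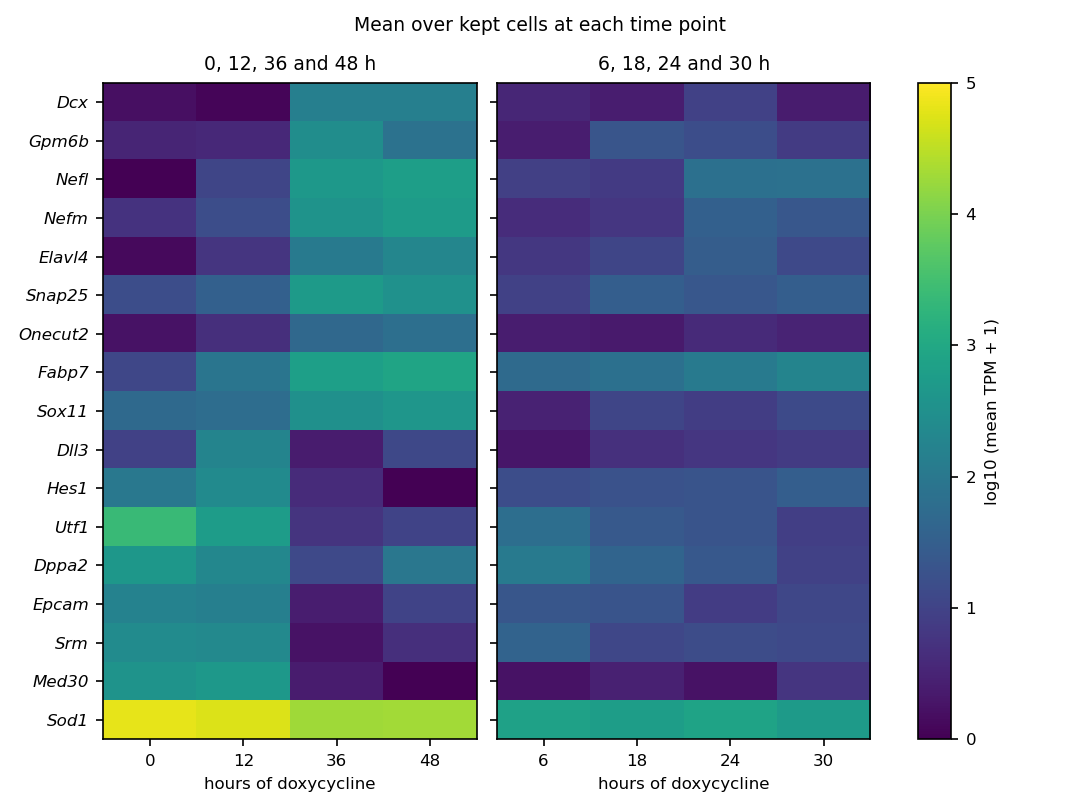
Log10 of (mean TPM + 1) over kept cells for 17 genes, with 0, 12, 36 and 48 h on the left and 6, 18, 24 and 30 h on the right, times in order within each panel. Neuronal genes are brightest at 36 and 48 h, the pluripotency genes Utf1 and Dppa2 at 0 h, Hes1 at 12 h, and Sod1 is brighter in each column on the left (19553 to 65262 TPM) than on the right (518 to 807 TPM).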

How the data were processed

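Single-cell SMART-Seq2 libraries of 768 cells, 96 at each of 8 time points, were read as single ends of 50 bp at an average depth given as 325000 per cell, in 2 batches, per the labels' protocols, which do not say which cells belonged to which batch. Values are TPM as deposited by the authors in 1 table. Per the submitters' processing notes, mm10, Picard and bcl2fastq were used (no versions named), and the column names carry the word rsem. The aligner is not stated there. Since TPM holds no read numbers, depth is unknown and the number of genes above 0 served as the measure of depth. Libraries carry no molecular identifiers. No 2 columns were identical, 0 columns belonged to no sample, and no doublet caller was run on these sorted cells.

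Means over kept cells were compared as log2((mean at 36 h + 1)/(mean at 12 h + 1)), which makes changes of low genes look smaller. With 1 sample per time point, no p-value or standard error was made. Shares have exact Clopper-Pearson 95% intervals, and where no cell was above 0 the limit is 3 cells over n. The members and lists were chosen with earlier results of these data known. Genes named were the 3 factors, the 12 highest and 12 lowest stable genes after leaving out unnamed models and small RNA genes, up to 4 members per list with the largest change, the 8 largest gains and 8 losses among the 2000 highest genes, and measures of depth. A result that these rules named is not reported here. Other genes named were chosen after their values were seen. Of the list genes 694 matched by symbol, 10 by a RefSeq synonym, and 6 did not match. List medians need at least 3 members that passed. GENCODE M21 gave lengths and GC for 92.7% of genes that passed. The calculation was checked on simulated data. Alternatives were other limits on cells, pseudocounts of 0.1 and 10 TPM, other averages and filters, and rescaling. Tools were scipy 1.17.1, pandas 2.3.3, matplotlib 3.10.9, numpy 2.4.6 and Python 3.11.15.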

Additional observations from a re-analysis of the deposited data

How the results depend on the processing

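Of 2769 values recomputed under the alternatives, 2577 kept their direction and size within the limits set, 156 moved and 36 reversed. The number of genes compared changed with some settings, so the counts are given with it. The genes 2-fold higher and lower at 36 h were 563 and 783 of 2638 with all 96 cells. They were 208 and 1845 of 4895 with medians over cells and 216 and 1987 of 4895 with means of log2(TPM + 1). With no filter they were 3713 and 4187 of 16632, and with detection in 50% of cells 339 and 546 of 2345. With the filter applied afresh to 12 h cells of at most 3500 genes, 1703 of 4150 were higher. The cause was not tested.

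The list medians that reversed were neural progenitor at −0.27 in even-numbered cells and Notch signalling at 0.89 with at most 3500 genes. Genes that reversed with at most 3500 genes at 12 h were BAT3 at 1.56, Zfp42 at 1.06, Hes6 at 1.50, Syt13 at 2.54, Slc1a3 at 1.32, SC4MOL at 0.91, Fzd7 at 1.09 and Asns at 1.62. With at most 4000 genes Syt13 was at 0.12 and Asns at 2.11. With all 96 cells BAT3 was at 1.44, Cntn1 at −0.68, Syt4 at −0.62, Tob1 at 0.19 (0.12 with at least 1000 genes), Ndufs1 at −0.33, Fzd3 at −1.75, Asns at 0.31 and H2-T23 at 1.96. With means of log2(TPM + 1) Syt4 was at −0.54, Prom1 at −0.054, Atp5j at −1.36, Eed at −0.26, Dnmt1 at −0.34, Rnf2 at −0.066 and Pdia6 at −0.23. With medians over cells Cenpf was at −0.68, Atp5j at −4.71, Tpi1 at −1.42, Dnmt1 at −1.74 and Pdia6 at −2.19. Mfng at −0.80 and Rnf2 at −3.71 reversed in even-numbered cells and Ss18 at −0.43 in odd-numbered cells. No paired analysis was possible because each time point is 1 sample and cell numbers only name cells. Depth limits detection of genes at low level, and the 11 to 19 shallow cells at 12 h limit the repeats.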
